A study of Mus musculus with 12 samples.

Results

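The transcription factors that set effector and memory fate in CD8 T cells were followed as 10 genes, Tbx21, Eomes, Prdm1, Id2, Id3, Zeb2, Runx3, Bcl6, Tox and Bhlhe40, chosen by symbol for their known roles. The choice was made with earlier results of these data known. All 10 were present among the 20778 genes of the count table, and all 10 passed the filter on low counts that left 12122 genes for testing. The mRNA libraries came from CD8 T cells of C57BL/6 mice, taken out of spleen suspensions on magnetic beads and kept in culture for 6 h. The Naïve group was left untreated, the αCD3 group received an antibody to the CD3 chain of the T cell receptor complex at 1 µg/ml, the IFNγ group received interferon gamma at 70 ng/ml, and the LPS group received bacterial lipopolysaccharide at 1 µg/ml. Each group held 3 libraries, 12 in all. The labels gave the antibody and lipopolysaccharide doses once in µg/ml and once in mg/ml, and gave the mice an age of 6 weeks where the study's methods gave another, so the doses and the age are uncertain. The labels name no genetic change in any group. Nothing in the labels said that replicates were separate mice, and the p-values then measure only the spread between these samples, which may be technical.

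A naive CD8 T cell that meets antigen divides and gives rise to short-lived killers and to long-lived memory cells, and the balance is set by pairs of opposed factors. The T-box proteins T-bet (Tbx21) and Eomesodermin (Eomes) switch on interferon gamma and cytotoxic genes, with T-bet driving terminal effectors and Eomes also needed for memory. Blimp-1 (Prdm1) and Bcl6 repress each other, with Blimp-1 on the effector side and Bcl6 on the memory side. Id2 and Id3 bind E proteins and keep them from DNA, and Id2 marks effector cells while Id3 marks memory precursors. Runx3 maintains the CD8 lineage and its cytotoxic genes, Zeb2 acts with T-bet in terminal effectors, Bhlhe40 is a repressor induced by receptor signals and needed for cytokine production, and Tox supports persistence of chronically stimulated cells.

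The libraries held 10196160 to 27610084 estimated counts. Levels are given as CPM, the counts of a gene per 1000000 counts of the library, on library sizes scaled by the trimmed mean of M values, with mean ± SD over the 3 libraries of a group, and a gene was called where its Benjamini-Hochberg adjusted p in edgeR's quasi-likelihood test was under 0.05. The CD8 T cell label was checked against fixed marker lists. The 9 CD8 T cell markers in the table summed to between 1246 and 2379 CPM over the 12 libraries, and 10 B cell markers summed to between 1837 and 3398 CPM, so B cell transcripts were abundant in every library. Of the B cell markers 1 was lower with IFNγ than in Naïve, 5 were lower with αCD3, and with LPS 4 were lower and 1 was higher. The 10 myeloid markers summed to between 327 and 925 CPM, with 1 lower with IFNγ, 6 lower with αCD3, and 6 lower and 1 higher with LPS. The 6 NK cell markers summed to between 10.7 and 36.3 CPM, with 1 called, lower with LPS. The 4 CD4 T cell markers summed to between 66.9 and 122 CPM, with 2 lower with αCD3 and 3 lower with LPS. The 8 dendritic cell markers, of which 7 could be tested, summed to between 49.4 and 123 CPM, with Cd209a at 0 in 4 libraries (αCD3 replicate 2 and all of LPS) and no other listed marker at 0 in any library, and of the dendritic markers 2 were lower with IFNγ, 2 were lower with αCD3, and 1 was higher and 1 lower with LPS. Among the CD8 T cell markers 5 were higher with αCD3 and 7 were lower with LPS. Of these 9 markers Cd8a and Cd8b1 encode the CD8 chains, and the others are not particular to CD8 T cells. Cd8b1 stood at 327, 307 and 312 CPM in Naïve and 284, 365 and 387 with LPS. Cd8a stood at 206, 227 and 269.6 CPM in Naïve and 196, 188 and 231 with LPS. Bcl6, Prdm1, Zeb2, Id2, Id3, Bhlhe40, Runx3, Tbx21 and Eomes are also used by B cells, myeloid cells or NK cells, the part of those cells in the values below was not tested, and in a bulk sample fewer cells of a type and less RNA per cell cannot be told apart. Replicate 1 stood apart in every group. Its NK and myeloid sums were the lowest of each group, as were its Prdm1, Id2 and Runx3 levels, and its Id3 and Bcl6 levels were the highest of each group. Same-numbered libraries deviated together, so results are also given with the replicate number as a block, or without replicate 1 of every group, where the call changes. The main calls come from a fit without this pairing. Leaving out replicate 1 was chosen after seeing the data and keeps only replicates 2 and 3 of each group. Its errors and p-values are therefore those of a set picked from the data.

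**Figure D1:**
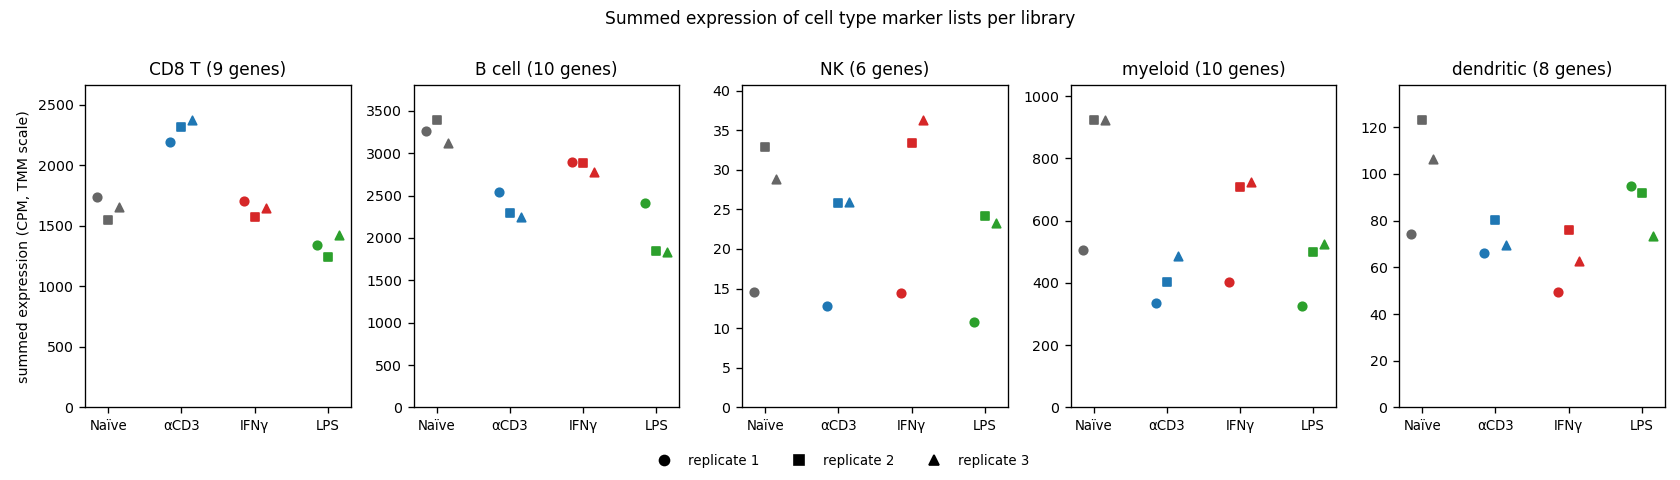
Summed level of 5 cell type marker lists in the 12 libraries, in CPM on linear axes from 0 that differ between panels, with 1 point per library, its shape giving the replicate number and its colour the group. The B cell sums lie between 1837 and 3398 CPM, near or above the CD8 T cell sums, and the NK and myeloid sums of replicate 1 are the lowest in each of the 4 groups.

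Across the 4 groups 7 of the 10 factors differed in the test for any difference, and 59.9% of all genes tested did. Eomes (adjusted p = 0.00410), Tox (0.00396), Runx3 (4.01e-04), Bcl6 (0.00572), Bhlhe40 (0.00657), Id3 (0.00959) and Tbx21 (0.0414) passed. Prdm1 (0.0705), Id2 (0.0700) and Zeb2 (0.171) did not. Without replicate 1 of every group all 10 passed, and 66.4% of all genes did.

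**Figure D2:**
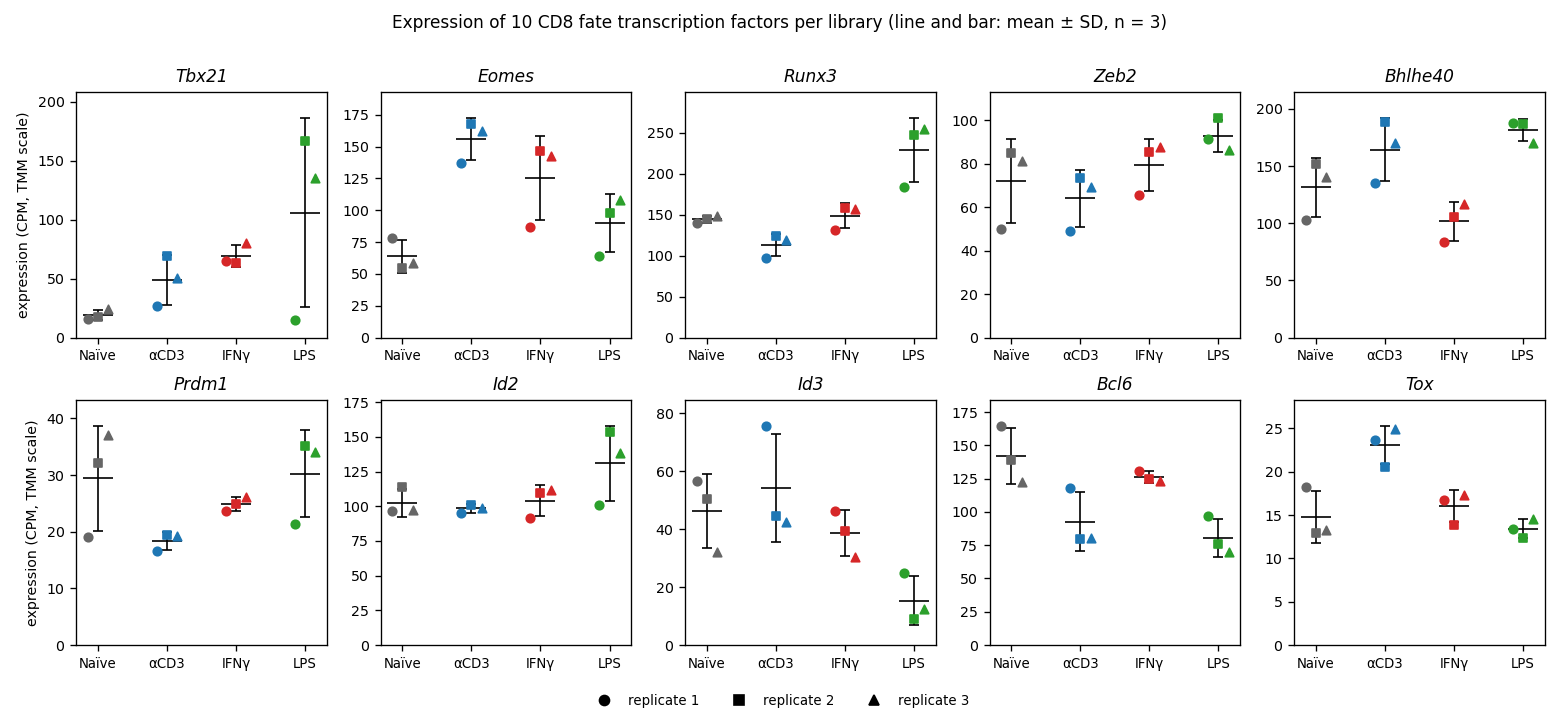
Level of each of the 10 factors in CPM on linear axes from 0, with 1 panel per gene, 1 point per library whose shape gives the replicate number, and a line at the mean of each group with a bar of its SD (n = 3). Eomes is higher in every αCD3 and IFNγ library than in every Naïve library, Id3 is lowest in the LPS libraries, and LPS replicate 1 lies far below the other LPS libraries for Tbx21.

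The level of Tbx21, which encodes T-bet, was higher with LPS than in Naïve. Tbx21 lies at chr11:97098071-97115331 on the minus strand (GRCm38). It stood at 15.9, 17.2 and 23.8 CPM in Naïve, 26.7, 69.0 and 50.7 with αCD3, 64.5, 62.9 and 79.9 with IFNγ, and 15.0, 167 and 135 with LPS, for replicates 1, 2 and 3. Every αCD3 and IFNγ library lay above every Naïve library, whereas LPS replicate 1 lay below them all and the other LPS libraries lay above every library of the other groups. The group means were 19.0 ± 4.21 CPM in Naïve, 48.8 ± 21.2 with αCD3, 69.1 ± 9.39 with IFNγ and 106 ± 80.1 with LPS (SD, n = 3). The LPS difference was 5.58-fold (log2 2.48 ± 0.67 SE, adjusted p = 0.0109) and missed the threshold with limma-voom (adjusted p = 0.0724). With IFNγ the difference was 3.64-fold (log2 1.86 ± 0.66, adjusted p = 0.101) and with αCD3 2.55-fold (log2 1.35 ± 0.66, adjusted p = 0.129), neither past the threshold. Both were called with only those groups in the fit (adjusted p = 0.00154 for IFNγ and 0.0286 for αCD3). They also changed with LPS replicate 1. Without it all 3 treatments were called higher than Naïve, with log2 differences of 1.86 for IFNγ (adjusted p = 0.00491), 1.35 for αCD3 (adjusted p = 0.00821) and 2.99 for LPS (adjusted p = 1.20e-04), and Tbx21 was also lower with IFNγ (log2 -1.13, adjusted p = 0.0204) and αCD3 (log2 -1.64, adjusted p = 0.00744) than with LPS. Leaving out replicate 1 of every group gave the same 5 calls.

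Eomes rose with αCD3 and with IFNγ. The gene lies at chr9:118478212-118486132 on the plus strand. It stood at 78.2, 54.5 and 58.3 CPM in Naïve, 137, 168 and 163 with αCD3, 87.1, 146 and 142 with IFNγ, and 64.4, 97.7 and 108 with LPS. All αCD3 and IFNγ libraries were above all Naïve libraries, and LPS replicate 1 lay within the Naïve range. The mean rose from 63.7 ± 12.7 CPM in Naïve to 156 ± 16.3 with αCD3, 2.44-fold (log2 1.29 ± 0.24, adjusted p = 0.00190), and to 125 ± 33.2 with IFNγ, 1.96-fold (log2 0.97 ± 0.24, adjusted p = 0.0233). With LPS it was 90.1 ± 22.9 CPM (log2 0.50 ± 0.24, adjusted p = 0.103). Eomes was higher with αCD3 than with LPS, 1.73-fold (log2 0.79 ± 0.23, adjusted p = 0.0401). The IFNγ call was lost without Naïve replicate 2 or 3 or IFNγ replicate 2 or 3, with an adjusted p of up to 0.0940, and the call between αCD3 and LPS was lost without the count filter and without Naïve replicate 2 or 3, any αCD3 library, IFNγ replicate 3 or LPS replicate 1 or 2, with an adjusted p of up to 0.102. Without replicate 1 of every group Eomes was higher than Naïve with all 3 treatments, by log2 1.34 ± 0.07 with IFNγ (adjusted p = 2.07e-06), 1.55 ± 0.07 with αCD3 (1.13e-06) and 0.87 ± 0.07 with LPS (8.72e-06), and its order αCD3 over IFNγ over LPS was called at each step (adjusted p = 0.0207 and 3.79e-04).

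The 250 bases before the Eomes start in RefSeq (GRCm38.p6, chr9:118477939-118478188, plus strand) are shown because Eomes rose in the IFNγ libraries and was the member with an interferon-stimulated response element in this window. They lie outside the annotated gene and its exons. The capitals mark a match to this motif, a pair of GAAA runs with any 2 bases between them, that begins 154 bases before the start, and 2.98% of the 32851 mouse promoters of the same length hold a match on either strand.
Eomes promoter: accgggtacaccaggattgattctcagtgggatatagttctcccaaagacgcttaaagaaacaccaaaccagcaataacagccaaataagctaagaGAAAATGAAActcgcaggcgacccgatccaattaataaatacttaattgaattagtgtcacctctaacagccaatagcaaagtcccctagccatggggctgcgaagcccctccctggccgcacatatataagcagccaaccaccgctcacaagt
A match to these letters is a description of the sequence and does not show that a factor binds there. The window was picked for having both the rise and the motif, so their meeting was fixed by that choice. Eomes rose with αCD3 (log2 1.29) as well as with IFNγ (log2 0.97), and a link between motif and rise was not tested. Tbx21, the other T-box gene, held none of the motifs searched other than an E-box (CANNTG, held by 66.2% of promoters) 196 bases before its start.

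Runx3 was higher with LPS than in each of the other groups. The gene lies at chr4:135120652-135177990 on the plus strand. It stood at 139.6, 144 and 148 CPM in Naïve, 97.6, 124 and 118 with αCD3, 132, 158 and 156 with IFNγ, and 184, 247 and 254 with LPS. The LPS libraries lay above all others and the αCD3 libraries lay below all others. Against a Naïve mean of 144 ± 4.36 CPM, the LPS mean was 228 ± 38.9, 1.58-fold higher (log2 0.66 ± 0.13, adjusted p = 0.00177). LPS also exceeded IFNγ, whose mean was 149 ± 14.9 CPM (log2 for IFNγ against LPS -0.62 ± 0.13, adjusted p = 0.00316), and αCD3, whose mean was 113 ± 13.7 CPM (log2 for αCD3 against LPS -1.01 ± 0.13, adjusted p = 4.54e-04). All 3 of these calls were made in every alternative run. The αCD3 level was 1.27-fold below Naïve (log2 -0.35 ± 0.13, adjusted p = 0.0536), which missed the threshold but passed it with the replicate block (log2 -0.36, adjusted p = 0.00159), without replicate 1 of every group (log2 -0.27, adjusted p = 0.00209), without IFNγ replicate 1 or LPS replicate 1, with library size alone, with DESeq2, and with only those groups in the fit. IFNγ exceeded αCD3 1.32-fold (log2 0.40 ± 0.13, adjusted p = 0.0346), a call lost without the count filter and without αCD3 replicate 1 or 3 or IFNγ replicate 2 or 3. With LPS, where Runx3 was highest, 7 of the 9 markers on the CD8 T cell list were lower than in Naïve. So were 4 of 10 B cell and 6 of 10 myeloid markers. Cd8a and Cd8b1 themselves overlapped between the LPS and Naïve libraries. The part of these cells in the Runx3 values was not tested.

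No comparison of Zeb2, a zinc finger factor that works beside T-bet, passed the threshold in the main fit. Zeb2 lies at chr2:44983632-45117395 on the minus strand. It stood at 49.8, 85.0 and 81.1 CPM in Naïve, 49.1, 73.5 and 69.4 with αCD3, 65.4, 85.1 and 87.4 with IFNγ, and 91.2, 101 and 86.0 with LPS. The LPS libraries were all above the Naïve libraries, by as little as the gap between 86.0 and 85.0 CPM, and replicate 1 was the lowest of the Naïve, αCD3 and IFNγ groups. The LPS difference from Naïve was log2 0.37 ± 0.21 (adjusted p = 0.171), and with the replicate block it was called at log2 0.40 (adjusted p = 0.0221). The αCD3 level was below that with LPS by log2 -0.54 ± 0.21 (adjusted p = 0.101), called with the block at log2 -0.56 (adjusted p = 0.00891). When replicate 1 of every group was left out, the LPS difference from Naïve was log2 0.17 and missed the threshold (adjusted p = 0.0916), the αCD3 level was called below LPS (log2 -0.38, adjusted p = 0.00699), and IFNγ was called above αCD3 (log2 0.25, adjusted p = 0.0326).

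Bhlhe40 was lower with IFNγ than with αCD3 or LPS. The gene lies at chr6:108660629-108666925 on the plus strand. It stood at 103, 151 and 141 CPM in Naïve, 135, 188 and 170.0 with αCD3, 83.5, 105 and 117 with IFNγ, and 187, 187 and 171 with LPS. Every IFNγ library was below every αCD3 and LPS library, and Naïve replicate 1 overlapped the IFNγ libraries. The IFNγ mean of 102 ± 17.0 CPM was 1.61-fold below the αCD3 mean of 164 ± 27.2 (log2 -0.69 ± 0.17, adjusted p = 0.00842) and 1.78-fold below the LPS mean of 181 ± 9.49 (log2 -0.83 ± 0.17, adjusted p = 0.00262). Both calls were made in every alternative run. Against the Naïve mean of 131 ± 25.7 CPM, LPS was 1.38-fold higher (log2 0.47 ± 0.17, adjusted p = 0.0397), a call lost with library size alone, without the count filter, and without Naïve replicate 1 or 3, αCD3 replicate 3, IFNγ replicate 2 or any LPS library, with an adjusted p of up to 0.187. The Naïve comparisons with αCD3 (log2 0.32 ± 0.17, adjusted p = 0.153) and IFNγ (log2 -0.37 ± 0.17, adjusted p = 0.203) missed the threshold. The IFNγ difference was called with library size alone (log2 -0.51, adjusted p = 0.0456). The αCD3 difference was called with the replicate block (log2 0.33, adjusted p = 0.0409), and without replicate 1 of every group Bhlhe40 was called lower with IFNγ (log2 -0.41, adjusted p = 0.00617) and higher with αCD3 (log2 0.30, adjusted p = 0.0105).

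Bcl6 fell with αCD3 and with LPS. The gene lies at chr16:23965052-23988852 on the minus strand. It stood at 165, 139 and 123 CPM in Naïve, 118, 79.7 and 80.5 with αCD3, 131, 125 and 123 with IFNγ, and 96.6, 75.8 and 69.6 with LPS. Every αCD3 and LPS library was below every Naïve and IFNγ library, and replicate 1 was the highest of each group. From 142 ± 21.1 CPM in Naïve it fell 1.76-fold to 80.7 ± 14.2 with LPS (log2 -0.82 ± 0.17, adjusted p = 0.00270) and 1.53-fold to 92.8 ± 22.0 with αCD3 (log2 -0.61 ± 0.17, adjusted p = 0.0164). The IFNγ mean was 126 ± 4.18 CPM (log2 -0.17 ± 0.17 against Naïve, adjusted p = 0.588) and exceeded LPS 1.57-fold (log2 0.65 ± 0.17, adjusted p = 0.0117). IFNγ against αCD3 gave log2 0.44 ± 0.17 (adjusted p = 0.0653), called with the replicate block at log2 0.46 (adjusted p = 0.00141) and without replicate 1 of every group at log2 0.61 (adjusted p = 1.57e-04). That difference was also called with DESeq2, with edgeR on DESeq2 size factors, and without αCD3 replicate 1 or LPS replicate 1. The αCD3 call was lost without Naïve replicate 1 or αCD3 replicate 2 or 3, with an adjusted p of up to 0.0705, and the call between IFNγ and LPS without LPS replicate 3 (0.0509). The summed B cell markers were also lower, at 2249 to 2545 CPM with αCD3 and 1837 to 2415 CPM with LPS against 3119 to 3398 CPM in Naïve, and their part in the Bcl6 values was not tested.

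Prdm1, which encodes Blimp-1, was lower with αCD3 than in Naïve. The gene lies at chr10:44437177-44528501 on the minus strand. It stood at 19.1, 32.1 and 37.0 CPM in Naïve, 16.6, 19.4 and 19.3 with αCD3, 23.7, 24.9 and 26.2 with IFNγ, and 21.4, 35.1 and 34.1 with LPS. Replicate 1 was the lowest of each group, and Naïve replicate 1 lay within the αCD3 range. The mean was 29.4 ± 9.24 CPM in Naïve and 18.4 ± 1.56 with αCD3, 1.60-fold lower (log2 -0.68 ± 0.24, adjusted p = 0.0420). That call was lost with limma-voom, without the count filter, with only those groups in the fit, and without Naïve replicate 2 or 3, any αCD3 or IFNγ library or LPS replicate 3, with an adjusted p of up to 0.161, and it was kept with the replicate block (log2 -0.63, adjusted p = 0.00584). IFNγ, at 24.9 ± 1.24 CPM, and LPS, at 30.2 ± 7.67 CPM, differed from Naïve by log2 -0.23 (adjusted p = 0.590) and 0.05 (adjusted p = 0.886). αCD3 against LPS gave log2 -0.72 ± 0.24 (adjusted p = 0.0558), and IFNγ against αCD3 gave log2 0.44 ± 0.24 (adjusted p = 0.173). With the block both were called, at log2 -0.68 (adjusted p = 0.00711) and log2 0.43 (adjusted p = 0.0394). αCD3 against LPS was called with DESeq2 and without Naïve replicate 1 or 3 or LPS replicate 1, and IFNγ against αCD3 with only those groups in the fit. Both were also called without replicate 1 of every group, at log2 -0.84 (adjusted p = 2.84e-04) and log2 0.38 (adjusted p = 0.0123), and Prdm1 was called lower with IFNγ than in Naïve (log2 -0.46, adjusted p = 0.00774) and than with LPS (log2 -0.46, adjusted p = 0.00348). The myeloid marker sums, also lowest in replicate 1 of each group, ranged from 506 to 925 CPM in Naïve and from 337 to 486 CPM with αCD3, and their part in the Prdm1 difference was not tested.

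The upstream sequences of Bcl6 and Prdm1 are shown because both genes fell with αCD3. Besides the matches in capitals, the first Bcl6 window held an E-box 60 bases before the start and the Prdm1 window held E-boxes at 168 and 87 bases, which are left in lower case. RefSeq gives Bcl6 a pair of promoter windows on the minus strand. The first, chr16:23988853-23989102, lies outside the annotated gene, and the second, chr16:23981284-23981533, lies within the gene with no exonic base and is therefore intronic. The capitals mark matches to the gamma activated site TTCNNNGAA, the STAT motif, which 7.02% of mouse promoters of this length hold. The first window has 1 match, 118 bases before the start, and the second has 3, at 168, 122 and 88 bases.
Bcl6 promoter 1: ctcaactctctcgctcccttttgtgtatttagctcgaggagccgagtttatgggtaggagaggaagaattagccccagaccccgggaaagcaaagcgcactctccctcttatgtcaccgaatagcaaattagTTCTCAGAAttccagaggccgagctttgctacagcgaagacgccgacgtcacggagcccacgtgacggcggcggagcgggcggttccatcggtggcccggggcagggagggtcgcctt
Bcl6 promoter 2: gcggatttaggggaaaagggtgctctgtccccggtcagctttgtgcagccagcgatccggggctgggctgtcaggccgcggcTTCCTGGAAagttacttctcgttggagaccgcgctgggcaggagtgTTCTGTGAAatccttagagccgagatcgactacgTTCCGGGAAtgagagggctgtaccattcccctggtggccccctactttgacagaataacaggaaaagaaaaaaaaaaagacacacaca
The Prdm1 window, chr10:44458749-44458998 on the minus strand, also lies within the gene with no exonic base. Its capitals mark an AP-1 match, TGANTCA, 48 bases before the start, a motif held by 6.75% of promoters.
Prdm1 promoter: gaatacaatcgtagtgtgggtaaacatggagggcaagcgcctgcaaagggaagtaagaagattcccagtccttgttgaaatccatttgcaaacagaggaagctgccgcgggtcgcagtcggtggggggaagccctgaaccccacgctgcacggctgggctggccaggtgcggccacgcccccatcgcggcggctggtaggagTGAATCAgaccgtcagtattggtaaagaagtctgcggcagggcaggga
Id3, the second Runx3 window and the first Zeb2 window held none of the 5 motifs searched, which were read on both strands and also included TGACGTCA (1.55% of promoters). Id2 and the first Runx3 window held only E-boxes, and of the 4 Zeb2 windows 2 overlapping ones shared a gamma activated site and 1 held 2 AP-1 matches. Of the 10 genes 8 had promoter windows, and Tox and Bhlhe40 were not matched. The absence of these letters says nothing about the factors named for them.

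Id3 fell with LPS, and Id2, the other inhibitor of E proteins, did not pass the threshold in any comparison of the main fit. Id3 lies at chr4:136143497-136145755 on the plus strand and Id2 at chr12:25093799-25097140 on the minus strand. Id3 stood at 56.5, 50.4 and 32.0 CPM in Naïve, 75.6, 44.4 and 42.5 with αCD3, 46.1, 39.5 and 30.5 with IFNγ, and 24.8, 8.91 and 12.3 with LPS. Every LPS library was below every other library. The mean fell 3.05-fold, from 46.3 ± 12.7 CPM in Naïve to 15.4 ± 8.39 with LPS (log2 -1.61 ± 0.38, adjusted p = 0.00553). It was 3.59-fold higher with αCD3, at 54.2 ± 18.6 CPM, than with LPS (log2 1.84 ± 0.38, adjusted p = 0.00749) and 2.55-fold higher with IFNγ, at 38.7 ± 7.82 CPM, than with LPS (log2 1.35 ± 0.38, adjusted p = 0.0165). The calls of LPS against Naïve and αCD3 were made in every alternative run, and the call against IFNγ was lost without IFNγ replicate 1 or LPS replicate 2 or 3, with an adjusted p of up to 0.0635. αCD3 and IFNγ differed from Naïve by log2 0.23 (adjusted p = 0.630) and -0.26 (adjusted p = 0.713).

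Id2 stood at 96.3, 114 and 97.1 CPM in Naïve, 95.3, 101 and 99.0 with αCD3, 91.2, 109 and 112 with IFNγ, and 101, 153 and 138 with LPS. Replicates 2 and 3 of LPS were above every other library, and LPS replicate 1 lay among the rest. The LPS mean of 131 ± 26.9 CPM was 1.28-fold the Naïve mean of 103 ± 10.1 (log2 0.36 ± 0.14, adjusted p = 0.0531), and against LPS the differences were log2 -0.33 for IFNγ (adjusted p = 0.0778) and -0.41 for αCD3 (adjusted p = 0.0604). With the replicate block all 3 were called, at log2 0.34 (adjusted p = 0.00797), -0.32 (adjusted p = 0.0128) and -0.39 (adjusted p = 0.00803), and so they were without replicate 1 of every group, at log2 0.47 (adjusted p = 0.00107), -0.42 (adjusted p = 0.00264) and -0.54 (adjusted p = 0.00140). All 3 were also called without LPS replicate 1. The αCD3 difference from LPS was called with DESeq2, and the LPS difference from Naïve without Naïve replicate 2.

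Tox, an HMG-box factor, rose with αCD3 and with no other treatment passed the threshold against Naïve. The gene lies at chr4:6686353-6991557 on the minus strand. It stood at 18.3, 12.9 and 13.3 CPM in Naïve, 23.7, 20.6 and 24.9 with αCD3, 16.8, 13.9 and 17.3 with IFNγ, and 13.4, 12.4 and 14.6 with LPS. The αCD3 libraries were above all other libraries. The mean rose 1.55-fold, from 14.8 ± 3.01 CPM in Naïve to 23.1 ± 2.21 with αCD3 (log2 0.63 ± 0.15, adjusted p = 0.00662), and αCD3 exceeded LPS, at 13.4 ± 1.10 CPM, 1.72-fold (log2 0.78 ± 0.15, adjusted p = 0.00485). IFNγ, at 16.0 ± 1.85 CPM, was 1.44-fold below αCD3 (log2 -0.53 ± 0.15, adjusted p = 0.0171), which was lost without αCD3 replicate 3 or IFNγ replicate 2 (up to 0.0690). Against Naïve, IFNγ gave log2 0.11 (adjusted p = 0.720) and LPS log2 -0.15 (adjusted p = 0.454). The sums of the CD8 T cell markers were also highest with αCD3, at 2190.4 to 2379 CPM against 1551 to 1743 CPM in Naïve, and their part in the Tox difference was not tested.

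Read by comparison, the factors were called at shares near those of all genes in most cases. IFNγ against Naïve called 1 of 10, Eomes, higher, where 12.4% of all genes were called (8.17% higher, 4.27% lower). αCD3 against Naïve called 4 of 10, Eomes and Tox higher and Prdm1 and Bcl6 lower, where 38.6% of all genes were called (22.9% higher, 15.7% lower). LPS against Naïve called 5 of 10, Tbx21, Runx3 and Bhlhe40 higher and Id3 and Bcl6 lower, where 49.3% of all genes were called (26.9% higher, 22.3% lower). With the replicate block the counts were 1 for IFNγ (24.9% of all genes), 6 for αCD3 (52.4%) and 7 for LPS (59.5%). The libraries of the treated group lay wholly on one side of the Naïve libraries for 2 factors with IFNγ, 5 with αCD3 and 5 with LPS, as they did for 31.5%, 52.4% and 58% of all genes. Since these comparisons share the Naïve libraries, they are set side by side without a test of overlap. Bcl6 was lower with both αCD3 (log2 -0.61) and LPS (log2 -0.82), and Eomes was higher with both αCD3 (log2 1.29) and IFNγ (log2 0.97).

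Between treatments, IFNγ against αCD3 called Runx3 higher and Tox and Bhlhe40 lower, 3 of 10 where 37.2% of all genes were called (15.8% higher, 21.4% lower), and 5 with the replicate block where 49.7% were. IFNγ against LPS called Id3 and Bcl6 higher and Runx3 and Bhlhe40 lower, 4 of 10 where 40.4% of all genes were called (18% higher, 22.4% lower), and 5 with the block where 52.7% were. αCD3 against LPS called Eomes, Id3 and Tox higher and Runx3 lower, 4 of 10 where 19.4% of all genes were called (9.64% higher, 9.76% lower), and 7 with the block where 34.7% were. The groups did not overlap for 5 factors in IFNγ against αCD3, 4 in IFNγ against LPS and 6 in αCD3 against LPS, where this held for 48.4%, 49.8% and 34.8% of all genes. The median absolute log2 difference over the 10 factors was 0.75 in αCD3 against LPS, where it was 0.22 over all genes tested. It was 0.44 in IFNγ against αCD3 (0.33 over all genes) and 0.55 in IFNγ against LPS (0.35), and 0.20 in IFNγ against Naïve (0.18 over all genes), 0.48 in αCD3 against Naïve (0.33) and 0.48 in LPS against Naïve (0.40). Without replicate 1 of every group the counts for the 3 treatments against Naïve were 4 for IFNγ (23.3% of all genes), 7 for αCD3 (48.8%) and 7 for LPS (55.1%), and between treatments they were 7 for IFNγ against αCD3 (45.4%), 8 for IFNγ against LPS (47.8%) and 8 for αCD3 against LPS (29.4%).

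**Figure D3:**
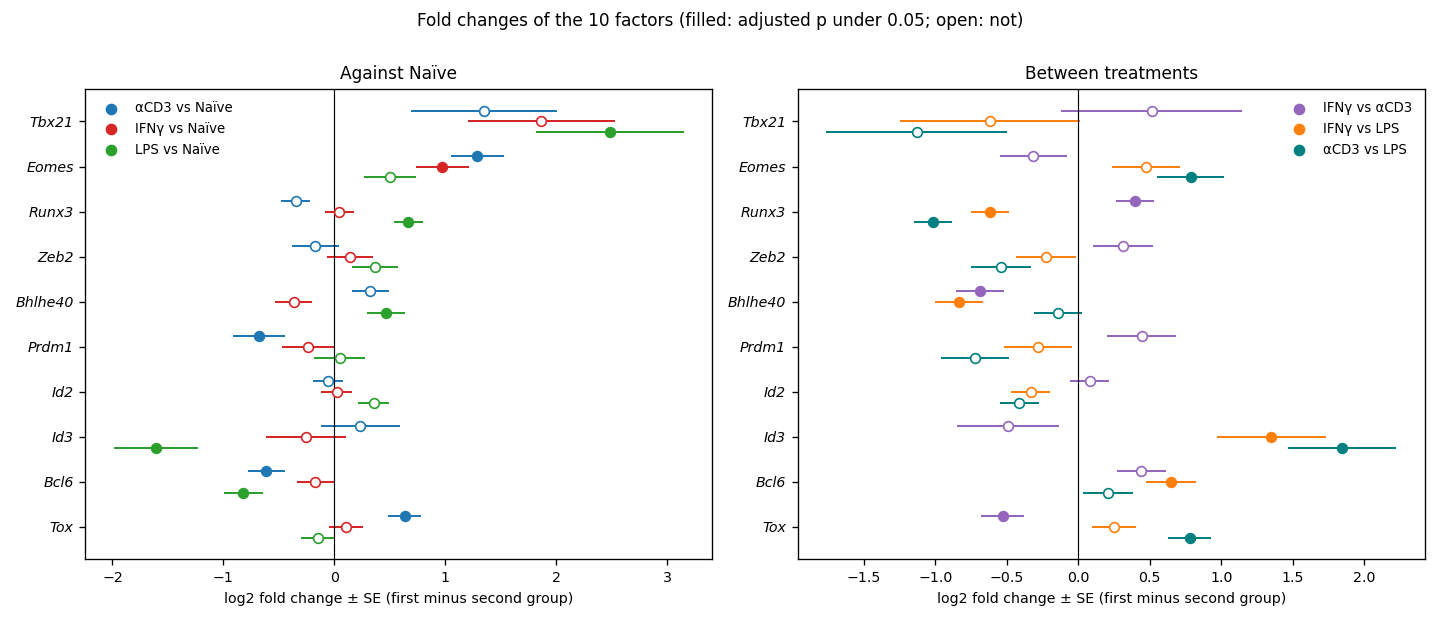
Log2 fold change of each of the 10 factors in the 6 comparisons, with bars of 1 SE and filled points for those with an adjusted p under 0.05. With LPS against Naïve, Tbx21, Runx3 and Bhlhe40 lie above 0 and Id3 and Bcl6 below it, and αCD3 against LPS has filled points for Eomes, Id3, Tox and Runx3.

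The balance within opposed pairs was read as the log2 ratio of 2 genes in the same library, tested by exact permutation over every way to split the 12 libraries into 4 groups of 3. The log2 ratio of Id2 to Id3 was 0.77, 1.18 and 1.60 in Naïve, 0.33, 1.19 and 1.22 with αCD3, 0.98, 1.47 and 1.87 with IFNγ, and 2.02, 4.09 and 3.47 with LPS. The LPS libraries all lay above the rest, with a mean of 3.19 ± 1.06 against 1.18 ± 0.41 in Naïve (SD, n = 3). Groups held 73.3% of the variation (one-sided exact permutation p = 0.00955, 0.0286 adjusted over the 3 ratios). Without replicate 1 of every group they held 96.0% (p = 0.0571 over 105 partitions, exact permutation, where the smallest possible p is 0.00952), and with the replicate number as a block 91.3% (exact permutation p = 0.00347).

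The log2 ratio of Tbx21 to Eomes was -2.28, -1.66 and -1.29 in Naïve, -2.36, -1.28 and -1.68 with αCD3, -0.43, -1.22 and -0.83 with IFNγ, and -2.09, 0.77 and 0.32 with LPS. LPS replicates 2 and 3 were the libraries with more Tbx21 than Eomes counts, and LPS replicate 1 lay in the Naïve range. Groups held 42.4% of the variation (one-sided exact permutation p = 0.189, adjusted 0.198), and 84.5% without LPS replicate 1 (exact permutation p = 0.00403). The log2 ratio of Prdm1 to Bcl6 was -3.10, -2.11 and -1.73 in Naïve, -2.82, -2.03 and -2.06 with αCD3, -2.46, -2.32 and -2.23 with IFNγ, and -2.17, -1.11 and -1.03 with LPS. Bcl6 counts exceeded Prdm1 counts in every library, and LPS replicates 2 and 3 had the smallest gap. Groups held 43.9% of the variation (one-sided exact permutation p = 0.198, adjusted 0.198). Without replicate 1 of every group the shares were 94.4% for Tbx21 to Eomes (exact permutation p = 0.0476) and 95.4% for Prdm1 to Bcl6 (exact permutation p = 0.0286), neither adjusted over the ratios. With the replicate number as a block they were 54.2% (exact permutation p = 0.118) and 79.4% (exact permutation p = 0.0642), neither past the threshold.

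**Figure D4:**
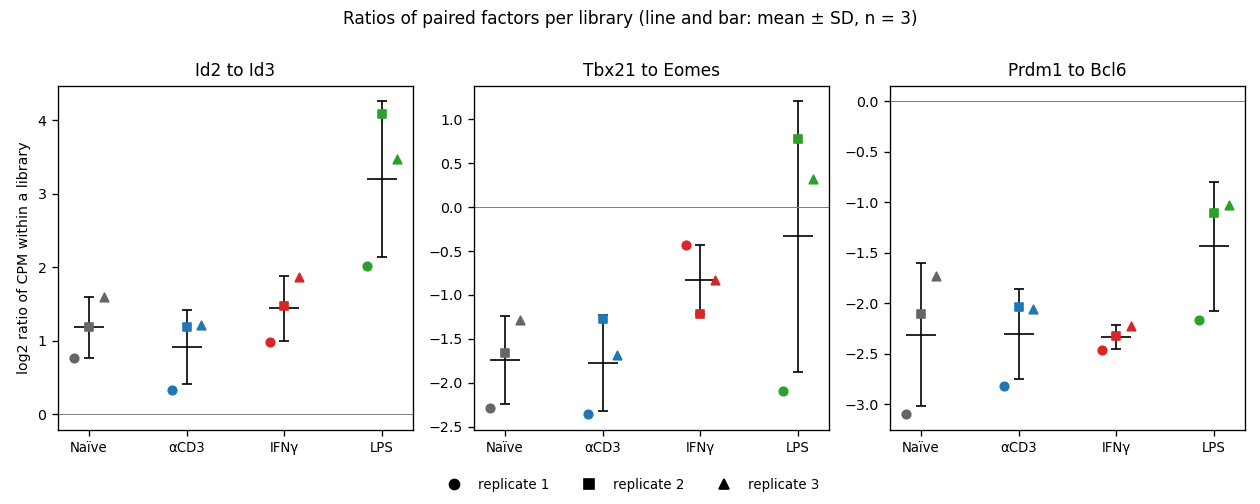
Log2 ratio of Id2 to Id3, Tbx21 to Eomes and Prdm1 to Bcl6 within each of the 12 libraries, 1 point per library whose shape gives the replicate number, with a line at the mean and a bar of the SD of each group (n = 3). The Id2 to Id3 ratio of the LPS libraries lies between 2.02 and 4.09, above every other library, and LPS replicate 1 lies below the other LPS libraries in all 3 panels.

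Levels can be compared between genes only per length. As CPM per kilobase of annotated exon in Naïve, Id2 was highest at 42.0, followed by Runx3 at 28.8, Bhlhe40 at 27.9, Id3 at 25.8, Bcl6 at 21.2 and Eomes at 15.3. Tbx21 at 7.63, Prdm1 at 5.27, Zeb2 at 3.61 and Tox at 1.95 were lower. With LPS, Tbx21 stood at 42.4 ± 32.2 CPM per kilobase, with LPS replicate 1 far below the others, Runx3 at 45.6 ± 7.78, Id2 at 53.7 ± 11.0 and Id3 at 8.57 ± 4.69. With αCD3 and IFNγ, Eomes stood at 37.5 and 30.2 CPM per kilobase. The order depends on the length used, and with the median transcript length Runx3 moved from rank 2 to rank 1 in Naïve and Zeb2 from rank 9 to rank 5, while with LPS Runx3 stood at 558 and Id2 at 103 CPM per kilobase against 42.4 for Tbx21.

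Other genes of the programme were counted from lists set by role, with earlier results of these data known. Beside each list stand the shares called over all genes, which against Naïve were 12.4% with IFNγ (8.17% higher, 4.27% lower), 38.6% with αCD3 (22.9% higher, 15.7% lower) and 49.3% with LPS (26.9% higher, 22.3% lower), and 24.9%, 52.4% and 59.5% with the replicate block. The median log2 difference over all genes was -0.02 with IFNγ, -0.02 with αCD3 and -0.01 with LPS. Of 14 effector genes, which encode cytokines, granule proteins and surface receptors among others, 1 was higher and 1 lower with IFNγ than in Naïve, 2 were higher and 3 lower with αCD3, and 4 were higher and 3 lower with LPS. The calls in either direction, 2, 5 and 7 of 14, stood beside 12.4%, 38.6% and 49.3% of all genes. With the replicate block the counts were 3 and 1, 4 and 4, and 7 and 3 (all genes 24.9%, 52.4% and 59.5%). The list's median log2 differences were 0.20 with IFNγ, 0.20 with αCD3 and 0.44 with LPS. Il12rb2, a chain of the interleukin-12 receptor, rose from 19.6 ± 5.59 to 125 ± 32.5 CPM with IFNγ (log2 2.68 ± 0.53, adjusted p = 0.00836). Gzmb, which encodes granzyme B, rose from 22.2 ± 8.13 to 346 ± 262 CPM with αCD3 (log2 3.96 ± 0.93, adjusted p = 0.00741). Ifng itself rose from 2.61 ± 0.97 to 190 ± 158 CPM with LPS (log2 6.19 ± 1.25, adjusted p = 0.00234), with a spread over the LPS libraries nearly as large as the mean. Cx3cr1, a chemokine receptor of terminal effectors and of monocytes, fell from 9.03 ± 2.79 to 3.55 ± 1.39 CPM with IFNγ (log2 -1.35 ± 0.32, adjusted p = 0.0186) and to 1.73 ± 0.37 CPM with LPS (log2 -2.39 ± 0.34, adjusted p = 2.25e-04), while Gzmk, granzyme K, fell from 11.0 ± 1.72 to 6.57 ± 0.38 CPM with αCD3 (adjusted p = 0.0107).

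Of 13 other effector factors tested, 2 were higher and 1 lower with IFNγ, 5 were higher and 2 lower with αCD3, and 6 were higher with LPS. Over all genes the shares called were 12.4%, 38.6% and 49.3%. With the block the counts were 5 and 1, 7 and 3, and 8 and 1 (all genes 24.9%, 52.4% and 59.5%). The list's median log2 differences were 0.17 with IFNγ, 0.25 with αCD3 and 0.48 with LPS. Irf8, an interferon regulatory factor, rose from 397 ± 59.1 to 1096 ± 91.8 CPM with IFNγ (log2 1.47 ± 0.32, adjusted p = 0.0145), and Nfil3, a basic leucine zipper factor, fell from 116 ± 30.0 to 52.4 ± 16.8 CPM (log2 -1.15 ± 0.28, adjusted p = 0.0223). Myc, a driver of growth after activation, rose from 151 ± 7.50 to 508 ± 109 CPM with αCD3 (log2 1.75 ± 0.15, adjusted p = 1.90e-05), and Rora, a nuclear receptor, fell from 22.7 ± 2.19 to 17.0 ± 1.35 CPM (log2 -0.42 ± 0.14, adjusted p = 0.0361). Batf, an AP-1 family factor of activated T cells, rose from 43.6 ± 3.82 to 227 ± 33.1 CPM with LPS (log2 2.38 ± 0.15, adjusted p = 1.86e-06). These factors are also used by B cells and myeloid cells, and which cells carried the change was not tested.

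Of 10 factors of naive and memory cells, 1 was higher with IFNγ, 2 were higher and 4 lower with αCD3, and 1 was higher and 3 lower with LPS. The shares of all genes called were 12.4%, 38.6% and 49.3%. The block gave 2 and 2, 2 and 5, and 1 and 8 (all genes 24.9%, 52.4% and 59.5%). The list's median log2 differences were -0.10 with IFNγ, -0.16 with αCD3 and -0.28 with LPS. Lef1, a partner of TCF-1, fell from 205 ± 36.9 to 112 ± 25.3 CPM with αCD3 (log2 -0.88 ± 0.21, adjusted p = 0.00762), and Myb, which supports memory stem cells, rose from 56.2 ± 3.87 to 99.7 ± 29.3 CPM (log2 0.83 ± 0.21, adjusted p = 0.0117). Klf2, which keeps T cells recirculating, fell from 747 ± 104 to 503 ± 94.8 CPM with LPS (log2 -0.57 ± 0.22, adjusted p = 0.0491). Zeb1, the relative of Zeb2, rose from 80.2 ± 6.74 to 106 ± 6.06 CPM with IFNγ (log2 0.41 ± 0.10, adjusted p = 0.0190) and to 114 ± 9.00 CPM with LPS (log2 0.50 ± 0.10, adjusted p = 0.00148).

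Of 7 surface genes of naive and memory cells, 4 were higher with IFNγ, 2 were higher and 2 lower with αCD3, and 2 were higher and 2 lower with LPS. Among all genes 8.17% were higher with IFNγ, 22.9% higher and 15.7% lower with αCD3, and 26.9% higher and 22.3% lower with LPS. With the block the LPS counts were 4 and 3, where 59.5% of all genes were called, and the others did not move. The list's median log2 differences were 0.26 with IFNγ, -0.11 with αCD3 and 0.21 with LPS. With αCD3, Il7r, the interleukin-7 receptor, fell from 282 ± 43.4 to 64.4 ± 21.8 CPM (log2 -2.12 ± 0.26, adjusted p = 1.57e-04), and Cd27, a costimulatory receptor, rose from 74.1 ± 15.5 to 203 ± 18.4 CPM (log2 1.45 ± 0.23, adjusted p = 6.95e-04). With LPS, Cxcr5, a homing receptor of B cell follicles, rose from 203 ± 3.12 to 418 ± 45.3 CPM (log2 1.04 ± 0.09, adjusted p = 1.06e-05), and S1pr1, the receptor for exit from lymphoid tissue, fell from 458 ± 60.7 to 266 ± 48.8 CPM (log2 -0.78 ± 0.28, adjusted p = 0.0391). Cxcr5 is carried by most B cells, and which cells gave its change was not tested.

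Of 13 partners and relatives of the factors that could be tested, 2 were higher with IFNγ, 3 were higher and 2 lower with αCD3, and 1 was higher and 4 lower with LPS. Called in either direction were 2, 5 and 5 of 13, where 12.4%, 38.6% and 49.3% of all genes were. In the block fit the counts were 3 and 2, 4 and 5, and 3 and 5 (all genes 24.9%, 52.4% and 59.5%). The list's median log2 differences were 0.03 with IFNγ, -0.13 with αCD3 and -0.04 with LPS. Tox2, the relative of Tox, rose from 1.81 ± 0.18 to 9.47 ± 0.81 CPM with αCD3 (log2 2.37 ± 0.28, adjusted p = 1.09e-04), the treatment in which Tox was called. Cbfb, which encodes the binding partner of Runx3, rose from 175 ± 5.09 to 210.0 ± 11.0 CPM with LPS (log2 0.26 ± 0.06, adjusted p = 0.00300), the treatment in which Runx3 was called higher. Bhlhe41, the relative of Bhlhe40, fell from 40.6 ± 3.05 to 26.2 ± 1.45 CPM with αCD3 (log2 -0.63 ± 0.12, adjusted p = 0.00256) and to 20.9 ± 1.38 CPM with LPS (log2 -0.96 ± 0.13, adjusted p = 1.46e-04), while Bhlhe40 was called higher with LPS. Tcf4, an E protein bound by Id2 and Id3, rose from 78.0 ± 6.25 to 122 ± 21.4 CPM with IFNγ (log2 0.64 ± 0.15, adjusted p = 0.0212).

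As a description, the genes most like each factor were named by Pearson's r of log2 CPM over the 12 libraries, among the 9442 genes that averaged 5 CPM or more. The points share group, replicate number and library, so no p is given. The names depend on the measure, since ranking by Spearman's rho gave other genes for every factor except Eomes, which shared Coa5. They were Gpr18 (0.926) and Gem (0.918) for Tbx21, Coa5 (0.919) and Msi2 (0.917) for Eomes, Lmna (0.939) and Cyfip1 (0.938) for Prdm1, and Trp53i13 (0.977) and Nbeal2 (0.976) for Bcl6. Runx3 was closest to Il6 (0.976) and Bcl3 (0.971), Id3 to Gga2 (0.963) and Mapk14 (0.959), and Id2 to Mpc1 (0.905) and Pgs1 (0.903). Bhlhe40 was closest to Apmap (0.971) and Lrrc41 (0.965), Tox to Zfp668 (0.930) and Cd28 (0.920), and Zeb2 to Igsf6 (0.913) and Anapc13 (0.902). Among the factors themselves the widest opposition was between Id3 and Runx3 (r = -0.94).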

How the data were processed

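mRNA sequencing of 12 libraries, 3 in each of the Naïve, αCD3, IFNγ and LPS groups, was analysed from 1 gene table. The authors pseudoaligned the reads with kallisto (mouse build mm10 per the labels) and deposited estimated counts per gene, which need not be whole and were rounded here. Whether the libraries kept strand is not given in the sources used here, so antisense transcripts overlapping Eomes, Runx3, Bcl6, Tox, Bhlhe40 and Zeb2 cannot be told apart from them.

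The counts were tested with edgeR 4.0.16 in R 4.3.3 (trimmed mean of M values, filterByExpr, quasi-likelihood F-test, all 12 libraries in 1 fit, group as the only term), with Benjamini-Hochberg adjustment over 12122 genes. This differs from the DESeq2 call of the study, which was run as an alternative (DESeq2 1.42.0), as were limma-voom (limma 3.58.1), other scalings, no filter, a replicate block and leaving out libraries. The fit was also run on simulated data for IFNγ against Naïve. Those data held no shared replicate effect, and no result here rests on that run. No counting intervals are given, since errors rest on the spread of the 3 libraries of a group. Same-numbered libraries deviated together in 18 of 18 pairs (r of deviations 0.117 to 0.401). The labels do not say what the numbers share. The main fit left this pairing out, and the block fit is given beside it. Where only the block fit called a comparison, the main fit alone does not settle it. No 2 replicates agreed within sampling noise (chi-square per gene 4.64 to 55.6, where sampling alone gives about 1).

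The factors, the companion and marker lists and the tests were chosen with earlier results of these data known. All 10 factors were described. Of each companion list, genes were named by the largest called change in each direction against Naïve (1 such gene is not reported here), and so were the 2 genes most like each factor by Pearson's r. Gene positions are from GENCODE M21 and promoter windows from RefSeq (GRCm38.p6). A planned comparison of protein sequences was not run.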

Additional observations from a re-analysis of the deposited data

How the results depend on the processing

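No factor changed direction past the threshold in any alternative. Over the 10 factors and 6 comparisons, 391 results outside the leave-one-out fits stayed on the same side of the threshold, called or not, 21 came to pass it and 8 no longer passed it. For IFNγ against Naïve the count of called factors was 2 with library size alone and 2 with only those groups in the fit. With the replicate block it was 5 for IFNγ against αCD3 and 7 for αCD3 against LPS. Leaving out libraries, or replicate 1 of every group (an alternative chosen after seeing the data), gave 0 to 4 called factors for IFNγ against Naïve, 2 to 7 for αCD3 against Naïve, 4 to 7 for LPS against Naïve, 1 to 7 for IFNγ against αCD3, 2 to 8 for IFNγ against LPS and 3 to 8 for αCD3 against LPS, with 0 in edgeR without Naïve replicate 2 or 3 or IFNγ replicate 2 or 3. The share of variation between groups ranged from 64.7% to 96.0% for Id2 to Id3 (exact permutation p from 0.00792 to 0.0571), from 33.3% to 94.4% for Tbx21 to Eomes (0.00403 to 0.383) and from 27.5% to 95.4% for Prdm1 to Bcl6 (0.0286 to 0.523). The cause was not tested, except that fewer libraries allow fewer partitions.

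Among all genes, those called for IFNγ against Naïve numbered 1508, and 2279 with library size alone, 3020 with the block, 2837 without replicate 1 and 787 without IFNγ replicate 2. For αCD3 against LPS they numbered 2351, and 4202 with the block, 3582 without replicate 1, 1440 with only those groups and 1429 without LPS replicate 2. Library size alone moved the median log2 difference of all genes to -0.16 for IFNγ, -0.13 for αCD3 and -0.22 for LPS against Naïve, and the share of calls that were higher to 31.4%, 44.0% and 32.8%. With 3 libraries a group, 1 library could decide a call, as for Tbx21 in IFNγ against LPS.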
